A study of Mus musculus with 49 samples.

Results

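Early S is the first stretch of DNA synthesis, and the cells described here are the 882 single mouse embryonic stem (ES) cells in 2i medium that the depositors labelled early-S. They are the rows of the diploid 2i table that passed the depositors' quality control and carry that label. They make up 882 of 1992 passing diploid 2i cells, of 4098 passing cells in the series. Of the others in that table, 404 are labelled G1 and 649 late-S/G2. All 882 come from 1 line, a diploid F1 hybrid of 129/SV-Jae and castaneus mice, grown without feeder cells in 2i, a medium whose kinase inhibitors keep ES cells undifferentiated. The study measured contacts by single-cell Hi-C, in which DNA of a fixed nucleus is cut, ligated and sequenced so that each read pair reports 2 segments that lay close together.

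The cells carry 6 condition codes, which are read here from their wording and from the sorting protocol. There are 53 early-S cells from the G1 gate (1CD_G1), 285 from the early-S gate (1CD_eS), 83 from the mid-S gate (1CD_mS) and 30 from the late-S/G2 gate (1CD_lS_G2). These gates were set by flow cytometry on Hoechst, which stains DNA, and on Geminin, a protein that accumulates from S phase until mitosis. A further 261 cells carry the code 1CDU, whose meaning is not given in the sources used here, and 170 carry NoSort. Cells of 1 GEO sample and 1 condition form a library here, and 16 libraries held at least 10 early-S cells, with 4 of 1CDU, 4 of NoSort and 2 of each gate. Whether these libraries stem from separate cultures is not stated in the labels, and p-values therefore cover only their own spread, which may be technical.

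During S phase each chromosome is copied in a fixed order, with open, gene-rich chromatin (the A compartment) copied early and closed chromatin (the B compartment) late. Chromosomes are also divided into topologically associating domains, neighbourhoods that contact themselves more than they contact the next one, and insulation measures how well their borders hold. Loops join paired anchors within domains, and their anchors can be grouped by whether they replicate early (EE) or late (LL).

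The label was set against the sort gates, which do not rest on contacts. In the early-S gate 285 of 303 passing cells were early-S, a share of 94.1% (exact 95% binomial interval 90.8 to 96.4%, counting error only). The mid-S gate gave 31.7%, the G1 gate 18.9% and the late-S/G2 gate 9.20%, while 1CDU gave 65.1% and NoSort 40.5%. The early-S gate thus held the highest share, and the libraries of a condition lay close together, at 61.0 to 68.0% in the 4 libraries of 1CDU and 36.1 to 44.9% in the 4 of NoSort. The gates also fell in sequence along the order the depositors gave the cells. Ranked from 1 to 882 within the group, the median cell of the G1 gate was at 98, that of the early-S gate at 451 and that of the mid-S gate at 787, but that of the late-S/G2 gate was at 536.5. The median was 328 in 1CDU and 534 in NoSort.

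**Figure D1:**
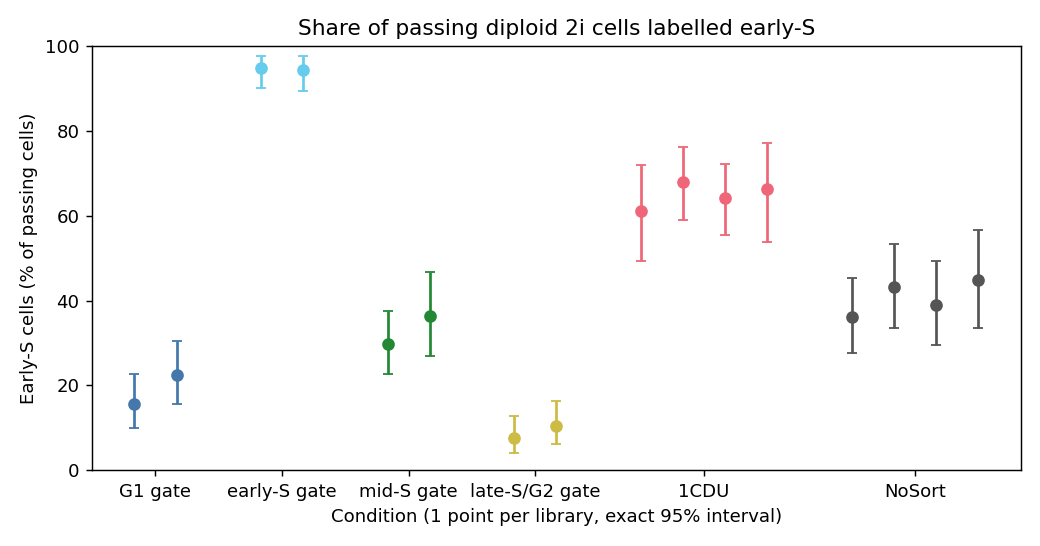
Share of passing diploid 2i cells labelled early-S (y axis, percent) in each of the 16 libraries, by condition (x axis); bars are exact 95% binomial intervals. Both libraries of the early-S gate lie above 94%, those of the late-S/G2 gate at 7.59% and 10.5%.

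How the group label and the order were made is not given in the sources used here. Within early S the order is matched by a sum of 2 columns, the short-range share in percent plus 48.6 times the replication score, which leaves 6 of 881 neighbouring pairs of cells out of order. Both columns thus count as used in choosing and ordering the cells, as does the mitotic-band share, and their values are a description only. The short-range share, the percentage of contacts in the deposited near band, lay between 62.2% and 80.2% in early-S cells, between 37.8% and 65.3% in G1 cells and between 76.9% and 88.3% in late-S/G2 cells. The limits overlapped, with 37 G1 cells above the lowest early-S cell and 114 late-S/G2 cells below the highest. At the lower edge the first 10 early-S cells had a median of 63.2%, against 62.1% in the last 10 G1 cells. At the upper edge the last 10 early-S cells had 78.0%, against 77.6% in the first 10 late-S/G2 cells. The share in the mitotic band, a longer distance range that fills with contacts in condensed chromosomes, was 8.35 to 18.2%. The replication score, by its name a measure of replication, is 1 in the lowest cell of the table and spanned 1.01 to 1.44. It does not rise throughout the cycle. Late-S/G2 cells reached down to 1.03, and the cells labelled pre-M spanned 1.03 to 1.14. A low score thus occurs both early and late in the cycle. The band limits and the scales of all scores are not given in the sources used here.

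Depth and library quality varied between the libraries. Contacts per early-S cell had a median of 188947, with quartiles of 97459.5 and 284381.5, and library means ran from 90206 in diploid 32_33 (NoSort) to 282898 in diploid 23 (mid-S gate). Libraries of the sort gates averaged 247993 contacts a cell, those of 1CDU 140307 and those of NoSort 120591. The share of fragment ends without digestion and the share of duplicated fragment ends were the 2 columns that differed most between libraries, with 59.5% and 60.8% of the variance over cells lying between libraries. These values include the variance between conditions, which was 44.2% and 53.0% of the whole. No cell name occurred in more than 1 row, no sequencing lane held more than 1 diploid GEO sample in the cell list, and all 192 barcode pairs were used again in other diploid libraries.

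The folding columns differed in how much of their variance lay between libraries. Insulation had a median of 2.50 over cells and library means between 2.22 (diploid 23, mid-S gate) and 2.56 (diploid 19, G1 gate), and 29.4% of its variance lay between libraries. The trans share, the percentage of contacts that join different chromosomes, had a median of 7.05%, and its library means ran from 5.22% (diploid 26, late-S/G2 gate) to 9.84% (diploid 11, 1CDU), with 27.4% between libraries. For the replication score 21.1% lay between libraries. The alignment score, a deposited measure of how chromosomes line up with each other, had a median of 0.259, with 14.8% between libraries. The far distance, the mean span of far contacts within a chromosome, had a median of 27.9 Mb and library means of 26.9 to 30.6 Mb, with 12.1% between libraries. The share of variance between libraries was smallest for the compartment scores and the loops. The cis compartment score, the preference of A and B segments for their own kind within a chromosome, had a median of 0.421 and 5.50% between libraries, and its trans counterpart a median of 0.312 and 3.24%. Contacts at EE loops were enriched by a median of 0.66 and those at LL loops by 0.95 on the log2 scale, with 4.24% and 6.06% between libraries. A small share need not mean close library means, which ran from 0.52 to 0.90 in EE and from 0.67 to 1.18 in LL loop enrichment.

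Within early S, the cells later in the order had weaker insulation. The course is described with no test, because the order comes from values of these cells. The rise of the replication score and of the short-range share along it is built into the order. In the 10 libraries with at least 5 cells in both outer tertiles of the order, the replication score averaged 1.10, 1.19 and 1.29 in the first, middle and last tertile. Insulation averaged 2.57, 2.50 and 2.34, and was higher in the last tertile than in the first in 0 of 10. Most of that difference fell in the second step. The last minus the middle tertile was -0.159 ± 0.0507 (SD over 10 libraries) and the middle minus the first -0.0692 ± 0.0488, and the second step was the larger in 9 of 10 libraries.

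Far contacts were shorter, and chromosomes more aligned, late in the order. The difference of the last minus the first tertile was -1.65 ± 1.08 Mb in far distance, negative in 9 of 10 libraries, and 0.0336 ± 0.0248 in alignment score, positive in 10 of 10. It was 0.0378 in the trans compartment score, positive in 9 of 10, whereas the cis compartment score was higher in 6 of 10. It was -0.14 in EE loop enrichment on the log2 scale, positive in 1 of 10 libraries, and -0.10 in LL loop enrichment, positive in 2 of 10. The trans share was highest in the middle tertile in 7 of 10 libraries, with means of 6.91%, 7.47% and 7.06%. The trans compartment score was highest in the middle tertile in 5 of 10 libraries, with means of 0.287, 0.335 and 0.325. Depth differed too, with 12115 more contacts a cell in the last tertile than in the first, and its part in these values was not tested.

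**Figure D2:**
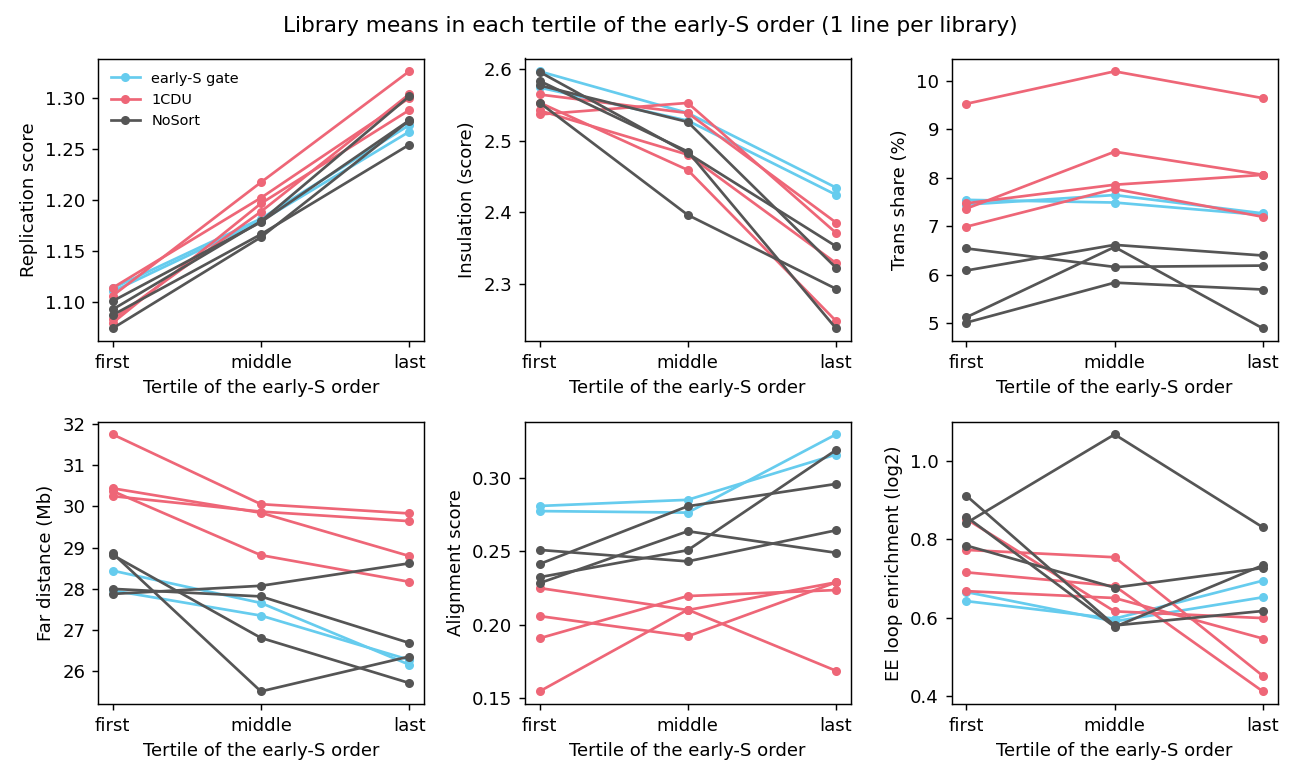
Mean of 6 columns (y axes, units as labelled) over the early-S cells of a library in the first, middle and last tertile of the order (x axes), 1 line for each of 10 libraries. Insulation averages 2.57, 2.50 and 2.34 over the libraries, and the replication score, on which the order is built, 1.10, 1.19 and 1.29.

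In deciles of the order, each of 88 or 89 cells, insulation stayed between 2.53 and 2.57 through the fifth decile and was 2.47, 2.46, 2.37, 2.30 and 2.22 in the deciles after it. The replication score stood at 1.07 in the first decile, 1.17 in the fifth and 1.34 in the last. The conditions are unevenly spread over the deciles, so these pooled values mix the course with the conditions. The mid-S gate, for example, had 62 of its 83 cells in the last 2 deciles, and the G1 gate had 47 of its 53 in the first 3.

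Relations between columns were read within the 14 libraries with at least 20 early-S cells, as Spearman's rho over the cells of a library, with no test. Only 12 chosen pairs of folding columns were computed, which leave out the band shares and many pairs of the other columns. Among these 12, the far distance and the alignment score were the closest, with a median rho of -0.76 and a range of -0.92 to -0.61. In each of these libraries, cells whose far contacts spanned longer distances had lower alignment scores. Both columns are computed from the contacts of the same cell. The replication score and insulation had a median rho of -0.57, negative in 14 of 14 libraries, and the cis and trans compartment scores one of 0.23. EE and LL loop enrichment had a median rho of 0.08. Both enrichments varied more in the shallower cells of a library, so this rho does not show whether EE and LL loop strength go together in a cell. With contacts per cell the median rho was between -0.19 and 0.19 for each folding column, while the share of duplicated fragment ends had 0.84.

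Among the sort gates, insulation in early-S cells was low in the mid-S and late-S/G2 gates. The 2 libraries of the mid-S gate averaged 2.22 and 2.23 and those of the late-S/G2 gate 2.29 and 2.26. The 2 libraries of the G1 gate averaged 2.56 and 2.54 and those of the early-S gate 2.51 and 2.52. The 2 pairs of gates did not overlap. The mean was 2.25 ± 0.0288 in the later gates and 2.53 ± 0.0218 in the earlier gates (SD, n = 4 libraries each), a difference of -0.283, which had the smallest p an exact two-sided permutation test of 4 against 4 libraries can give, 0.0286. After Benjamini-Hochberg adjustment over the 9 folding columns tested it was 0.257, so it did not pass 0.05. The 9 include the replication score, whose own p is not read here since the order is built on it, and over the other 8 the adjusted p was 0.229. In this comparison 0 of 9 columns (0%) passed and 1 had an unadjusted p under 0.05. With 4 libraries a side an adjusted p under 0.05 needs at least 6 of the 9 columns at the smallest p.

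Cell by cell, 8 of 83 early-S cells from the mid-S gate (9.64%) and 4 of 30 from the late-S/G2 gate (13.3%) lay at or above the group's median insulation. The share was 71.7% in the G1 gate and 59.6% in the early-S gate. Position along the order moved with the gates. In the ninth decile the median insulation was 2.14 over 23 cells of the mid-S gate and 2.48 over 19 cells of the early-S gate, and in the last decile it was 2.16 over 39 cells of the mid-S gate and 2.28 over 7 cells of the early-S gate. Counted relative to all early-S cells of the same decile, the later minus the earlier gates gave -0.135, against -0.283 with position left in. The mean of a decile includes the cells of the gates compared, so this step also takes out part of the gate difference. The exact permutation p was again 0.0286, and the adjusted p of 0.0857 did not pass. Coverage deviation, the largest departure of a chromosome from its usual coverage, was also higher in the later gates without overlap, at 0.481 against 0.374 in the earlier gates, and its part in the difference was not tested.

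**Figure D3:**
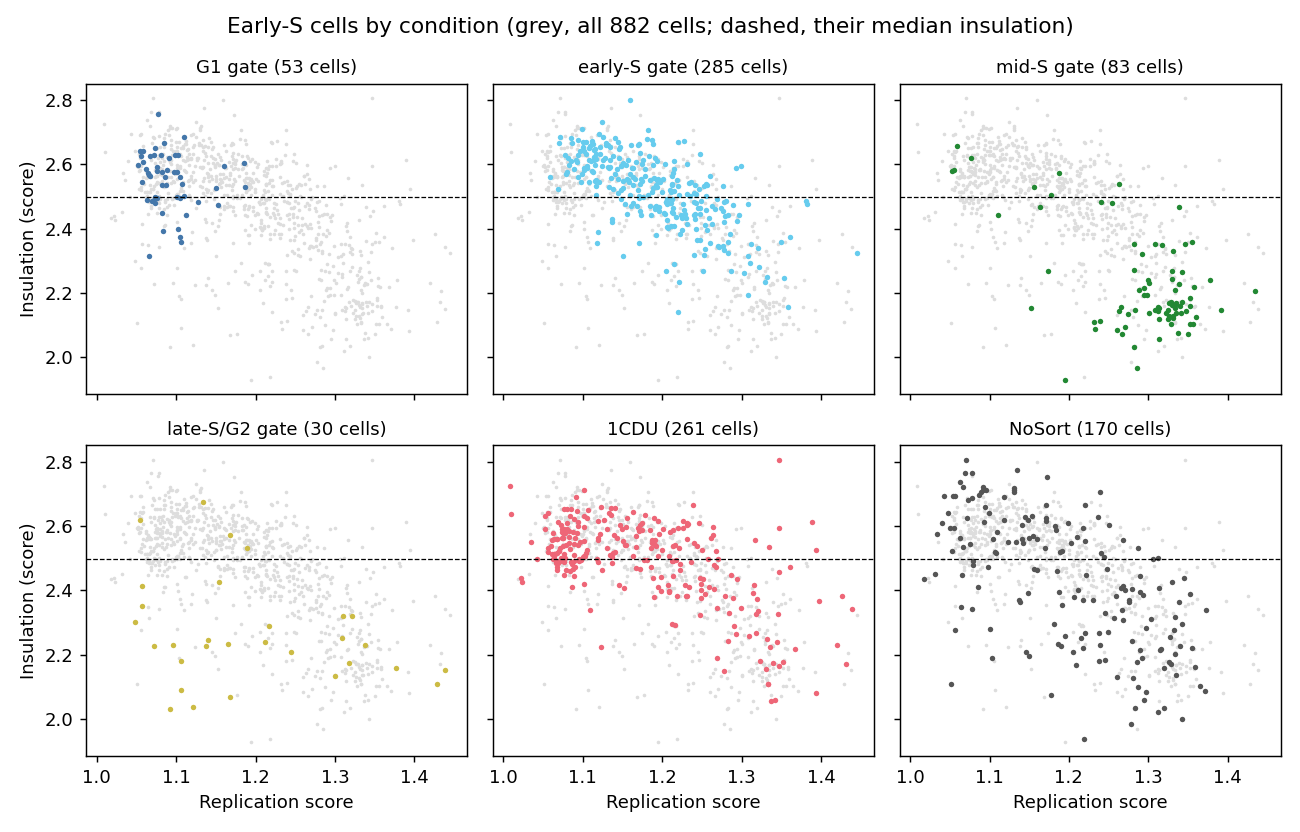
Insulation (y axis, score) against the replication score (x axis) of each early-S cell, 1 panel for each condition, with all 882 cells in grey and the median insulation of 2.50 as a dashed line. Of the 30 cells from the late-S/G2 gate 26 lie below the line over the whole range of replication scores, while the cells of the early-S gate straddle it.

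The 30 early-S cells from the late-S/G2 gate combined widely spread replication scores with low insulation. Their replication scores spanned 1.05 to 1.44, with a median of 1.17, against 1.31 in the 83 cells of the mid-S gate. Their median insulation was 2.23 and their median short-range share 76.2%. Of the 30 cells 19 lay in deciles 4 to 8 of the order, where their median insulation was 2.24, against 2.52 over 213 cells of the early-S gate, which need not fall alike over these deciles. Relative to the mean of each cell's own decile, the libraries of the late-S/G2 gate averaged -0.151 in insulation, those of the mid-S gate -0.0827, those of the G1 gate -0.00476 and those of the early-S gate 0.0412. The other tested columns overlapped between the later and the earlier gates. LL loop enrichment, for example, was 0.79 in the later gates and 0.93 in the earlier gates on the log2 scale, with an adjusted p of 0.257 in the exact permutation test. The short-range share did not overlap, at 75.2% in the later gates and 69.1% in the earlier gates, and the replication score averaged 1.24 in the later gates and 1.14 in the earlier gates, both with no test.

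Early-S cells of 1CDU and NoSort differed in 6 of the 9 folding columns tested (66.7%), each with a two-sided exact permutation p of 0.0286 and an adjusted p of 0.0429. Contacts between chromosomes were more frequent in 1CDU. The trans share was 9.84%, 7.68%, 7.88% and 7.27% in the 4 libraries of 1CDU, against 6.28%, 5.56%, 6.22% and 5.43% in those of NoSort. The lowest 1CDU library lay above the highest NoSort library, and the difference of the means was 2.29 percentage points. The far distance was 30.6, 29.6, 29.8 and 30.0 Mb in 1CDU and 27.4, 28.2, 27.3 and 26.9 Mb in NoSort. The groups did not overlap, and 1CDU was 2.56 Mb longer on average.

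Compartments were sharper within chromosomes in 1CDU, and chromosomes were less aligned. The cis compartment score averaged 0.441 ± 0.00744 in 1CDU and 0.397 ± 0.0218 in NoSort (SD, n = 4 libraries each). The alignment score was 0.181, 0.203, 0.208 and 0.221 in the libraries of 1CDU and 0.269, 0.248, 0.255 and 0.275 in those of NoSort, lower in each 1CDU library than in any NoSort library. LL loop enrichment averaged 0.95 ± 0.05 in 1CDU and 1.11 ± 0.04 in NoSort on the log2 scale. Insulation averaged 2.49 ± 0.0180 in 1CDU and 2.43 ± 0.0233 in NoSort. EE loop enrichment and the trans compartment score did not pass, with an adjusted p of 0.0735 and 0.0964 in the exact permutation test. The replication score, whose p is not read, averaged 1.17 in 1CDU and 1.19 in NoSort.

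The difference in insulation moved with position along the order. The 1CDU cells lay earlier, with a short-range share of 69.9% in 1CDU and 72.8% in NoSort and no overlap of libraries. The difference also changed sign along the order. In deciles 1 to 3 the median insulation over cells was 2.54 in 1CDU and 2.59 in NoSort. In deciles 4 to 8 it was 2.53 in 1CDU and 2.41 in NoSort, and in deciles 9 and 10 2.26 in 1CDU and 2.24 in NoSort, with no test. Relative to all early-S cells of the same decile, those of both conditions included, 1CDU stood 0.0164 above NoSort in insulation. The adjusted p was 0.514 in the exact permutation test. The other 5 columns had an adjusted p of 0.0429 in the same test, among them the trans share at 2.28 points and the far distance at 2.06 Mb. EE loop enrichment, at -0.11 on the log2 scale, was then the sixth column at the smallest p, and the other 5 pass only with it. The share without digestion was 36.3% in 1CDU and 48.1% in NoSort, and that of duplicated fragment ends 2.18% in 1CDU and 5.40% in NoSort, both without overlap. Their part in the differences was not tested, and lane and library cannot be told apart. Over 9 columns the 6 calls stand or fall together, because 6 must reach the smallest p. Among cells with contacts between the 25th and the 75th percentile, as with medians over cells, 5 of them had the smallest p and an adjusted p of 0.0514, insulation aside, so 0 passed. Over the 8 columns other than the replication score 5 at the smallest p are enough. The 6 calls then had an adjusted p of 0.0381, and 5 columns passed in each of these 2 settings, at 0.0457 in the exact permutation test. Over 9 columns 0 also passed without diploid 11, 12, 13, 2_14 or 30_31, with 4 or 5 columns at an unadjusted p under 0.05. Without diploid 11 the difference in trans share was 1.74 points, and the direction of the 6 differences held without any 1 library.

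**Figure D4:**
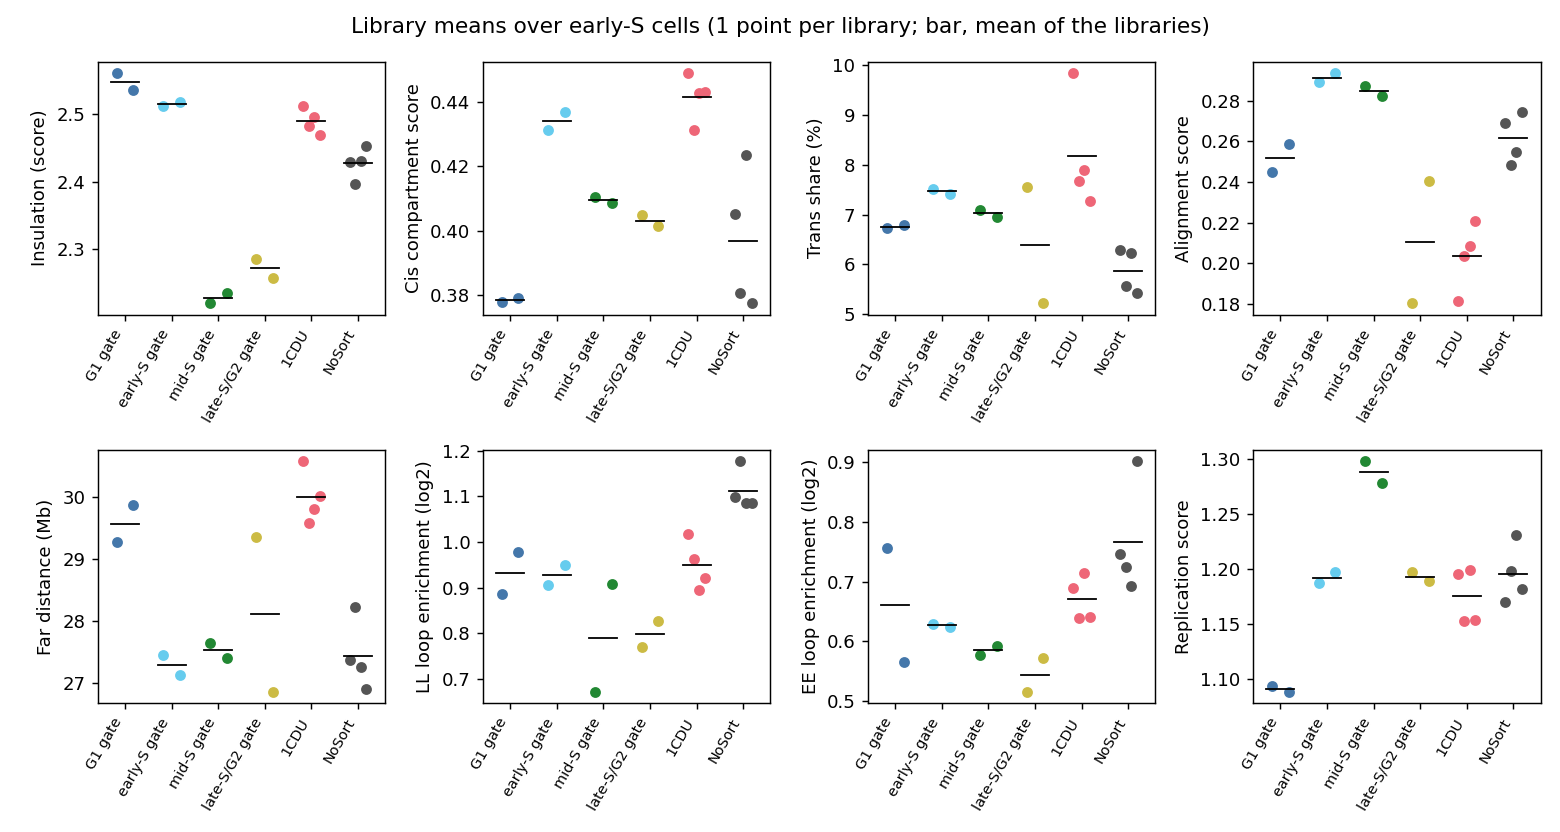
Mean of 8 folding columns (y axes, units as labelled) over the early-S cells of each of 16 libraries, by condition (x axes), with a bar at the mean of each condition. The libraries of 1CDU and NoSort do not overlap in insulation, cis compartment score, trans share, alignment score, far distance and LL loop enrichment, and the mid-S and late-S/G2 gates lie lowest in insulation.

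Loops were less enriched in the early-S cells of the sort gates than in those of NoSort. Of 9 folding columns 2 (22.2%) passed, over 8 libraries of the gates and 4 of NoSort. LL loop enrichment was 0.67 to 0.98 in the libraries of the gates, with a mean of 0.86, and 1.10, 1.18, 1.08 and 1.09 in those of NoSort, with a mean of 1.11 on the log2 scale. The groups did not overlap, and the exact permutation test gave an adjusted p of 0.0182. EE loop enrichment averaged 0.60 ± 0.07 in the gates and 0.77 ± 0.09 in NoSort, with an adjusted p of 0.0364 in the same exact test, and the groups overlapped. The trans share averaged 6.91% in the gates and 5.87% in NoSort with an adjusted p of 0.0909 in the exact test.

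Depth and library quality moved with both loop differences. Cells of the gates averaged 247993 contacts and those of NoSort 120591, without overlap between libraries. The share without digestion was 36.2% in the gates and 48.1% in NoSort, and that of duplicated fragment ends 2.76% in the gates and 5.40% in NoSort, both also without overlap, and the part of these shares in the loop differences was not tested. Among cells whose contacts lay between the 25th and the 75th percentile, the gates minus NoSort gave -0.14 in LL loop enrichment with an adjusted p of 0.514 and -0.03 in EE loop enrichment with 0.650, over 6 libraries against 4 in the exact test. With equal weight of the tertiles both had an adjusted p of 0.0857 in the exact test. Both calls were lost without diploid 28_29, 30_31, 32_33 or 34_35, where the adjusted p of LL loop enrichment was 0.0545 to 0.0818, and the call for EE loop enrichment was lost also without diploid 20, 21, 22, 23, 24 or 25, at 0.0545 to 0.0682.

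Cell-to-cell spread within a library was larger than the spread between library means for all 11 folding columns. The pooled within-library SD was 1.27 times the SD of library means for insulation, 1.39 times for the trans share and 2.58 times for the far distance, but 4.38 times for the trans compartment score and 3.66 times for EE loop enrichment. The replication score had its narrowest spread in the G1 gate, with SDs of 0.0444 and 0.0165 in its 2 libraries, and its widest in the late-S/G2 gate, with 0.117 and 0.119. The far distance was the other way round in the G1 gate, with SDs of 4.10 Mb and 5.22 Mb, the largest of the 16 libraries. The loops were the folding columns whose spread followed depth most closely. EE loop enrichment had an SD of 0.24 in the cells of a library above its median depth and 0.43 in those below, and LL loop enrichment 0.31 above and 0.51 below, narrower in the deeper cells in 14 of 14 libraries for both. The trans compartment score was narrower in the deeper cells in 11 of 14 libraries, and the cis compartment and alignment scores in 10 of 14.

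In 3 of the 9 columns tested, the SD within a library was smaller in each 1CDU library than in any NoSort library, and none of them passed the test. The within-library SD of insulation was 0.126 ± 0.0175 in 1CDU and 0.205 ± 0.0163 in NoSort. That of the cis compartment score was 0.0787 in 1CDU and 0.111 in NoSort, and that of the trans compartment score 0.0916 in 1CDU and 0.111 in NoSort. None of the 3 overlapped between the groups, and each had an exact permutation p of 0.0286 and an adjusted p of 0.0857, so 0 of 9 columns (0%) passed and 3 had an unadjusted p under 0.05. The SD of the mitotic-band share, which was not tested, did not overlap either, at 1.34 points in 1CDU and 1.83 points in NoSort, nor did that of duplicated fragment ends, at 0.750 points in 1CDU and 1.61 points in NoSort. For the SD around the means of the tertiles, 1CDU minus NoSort was -0.0778 in insulation, against -0.0786 with the course left in. The course itself was not shown to differ. The change in insulation over the tertiles was -0.216 ± 0.0630 in 1CDU and -0.277 ± 0.0470 in NoSort, and 0 of 9 columns (0%) passed in the exact permutation test, none with an unadjusted p under 0.05.

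**Figure D5:**
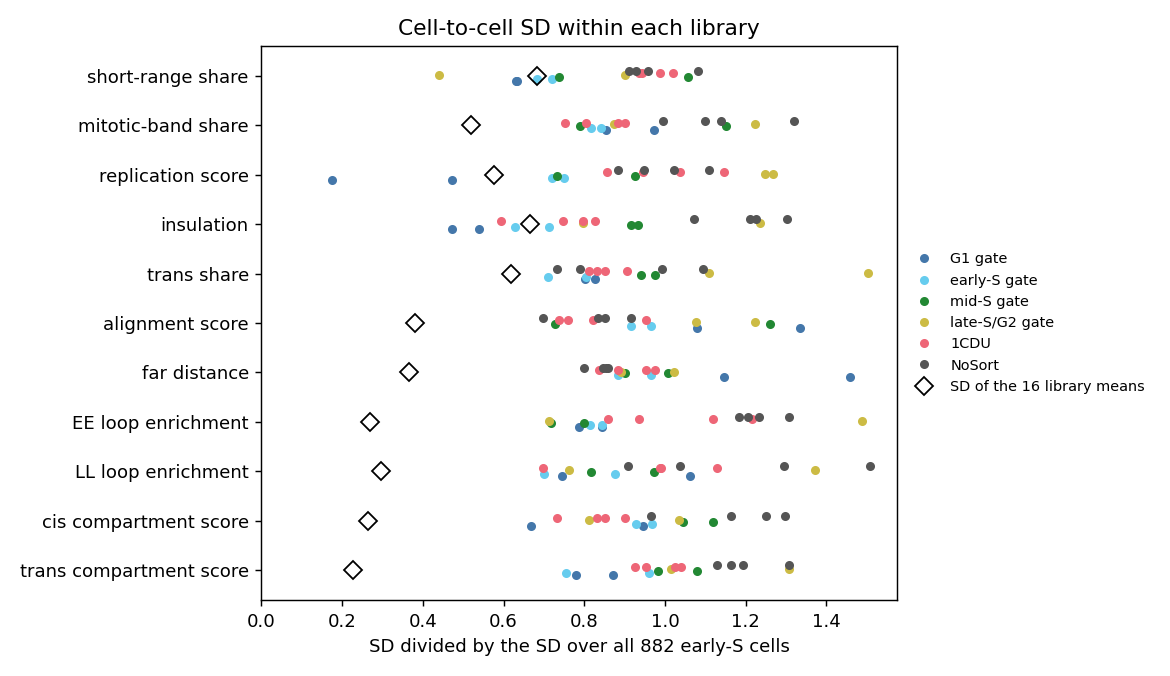
Cell-to-cell SD of each of 11 folding columns within each library, divided by the SD over all 882 early-S cells (x axis), with colours for conditions and an open diamond for the SD of the 16 library means. The NoSort points lie to the right of the 1CDU points for insulation, cis and trans compartment scores.

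Early-S cells in 2i held their far contacts at longer distances than early-S cells in serum. Scores are set within a table, so only 5 columns with the same unit in both were tested, and 3 (60%) passed. The far distance averaged 28.4 ± 1.31 Mb over 16 libraries in 2i and 25.5 ± 0.754 Mb over 8 libraries in serum, where cells grew on feeder cells that were then depleted and ES cells were sorted for Oct-3/4. The lowest 2i library, at 26.9 Mb, lay above the highest serum library, at 26.8 Mb, and the exact permutation test gave an adjusted p of 7.5e-05, and at most 0.0101 in the alternatives run. The GEO sample diploid 2_14 held 45 early-S cells from 2i and 41 from serum in 1 lane, with a far distance of 30.0 Mb in 2i and 25.2 Mb in serum. The other calls were technical columns, with 189221 contacts a cell in 2i and 272381 in serum (adjusted p = 0.0209 in the exact test) and a share without digestion of 39.2% in 2i and 30.9% in serum (adjusted p = 0.00351 in the exact test). The trans share was 6.96% in 2i and 7.89% in serum, with an adjusted p of 0.0623 in the exact test and 0.00809 without diploid 11, and duplicated fragment ends were at 3.27% in both. The call for contacts a cell was lost without serum library diploid 7 or 8, at an adjusted p of 0.0540 and 0.0531 in the exact test.

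Set beside the neighbouring groups of the same libraries, with no test since the contacts defined the groups, early-S cells were the more varied in 4 of 11 folding columns against G1 cells and in 9 of 11 against late-S/G2 cells. The 11 include the band shares and the replication score, which count as used in choosing the cells. Some SDs counted as larger were nearly equal, at 1.02 times for LL loop enrichment against G1 cells. Against late-S/G2 cells the trans compartment score had 1.09 times, the alignment score 1.10 times and the far distance 1.11 times. Against G1 cells in 10 libraries, the within-library SD of early-S cells was 2.61 times as large for the replication score and 1.46 times for insulation, but 0.698 times for the far distance, 0.786 times for the trans share and 0.604 times for the mitotic-band share (medians over libraries). Against late-S/G2 cells in 9 libraries, it was 1.79 times as large for insulation and 1.86 times for the trans share. The mean insulation was 2.48 in early-S cells and 2.48 in G1 cells, and 2.36 in early-S cells and 2.21 in late-S/G2 cells of the 9 libraries. The cis compartment score was higher in early-S than in G1 cells in 10 of 10 libraries, at 0.411 in early-S and 0.339 in G1 cells. LL loop enrichment was 0.96 in early-S and 0.72 in late-S/G2 cells on the log2 scale, higher in early-S cells in 8 of 9 libraries. The far distance averaged 28.9 Mb in early-S and 27.9 Mb in G1 cells, higher in early-S cells in 6 of 10 libraries. At the edge between the 2 groups it was the other way round. The first 10 early-S cells had a median far distance of 31.7 Mb, against 37.1 Mb in the last 10 G1 cells. Those G1 cells all lay between 32.9 and 39.6 Mb. What the order rests on among G1 cells was not tested, so this edge is not read as a change between the groups.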

How the data were processed

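Single-cell Hi-C of a diploid mouse ES line was analysed from the deposited tables of cells by features. Per the submitters' processing notes, reads were aligned with Bowtie2 to mm9, and later steps are not given in the sources used here. Contacts per cell are deposited counts. The deposited shares are a fraction of a cell's total, printed in percent, with denominators and band limits unstated. Each deposited score has an undefined scale. The deposited loop enrichments were read as log2 values from their range. The far distance, deposited in bp, is printed in Mb.

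Cells were taken by the authors' quality flag and early-S label, and batch numbers were joined to GEO samples through the cell list, diploid 27 by its title. The unit of every test was the library mean (or SD, or last minus first tertile) over at least 10 early-S cells, and at least 5 cells in each outer tertile. Diploid 27 (7 early-S cells) and 15_16_17_18 (at most 4 in a condition) fell below it. Library labels were permuted exactly, two-sided, with Benjamini-Hochberg adjustment over 9 columns (5 between media) at 0.05. The band shares were not tested, since the grouping rests on them. The replication score counts among the 9, but its own p is not read, because the order proved to be built on it. No gene was named, since the tables hold none, and every folding column was reported. Cell type markers did not apply. The members and columns were chosen with earlier results of these data known.

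Alternatives were minimums of 5 and 20 cells, contacts between the 25th and the 75th percentile, medians, equal weight of the tertiles, other measures of spread and course, and leaving out each library. Values relative to the decile of the order, 8 columns without the replication score, other sets of 2i libraries and the mid-S against the early-S gate were added after the data were seen. Depth was 20152 to 539513 contacts per cell, and the number of libraries limits the precision. The tools were numpy 2.4.6, scipy 1.17.1 and pandas 2.3.3 under Python 3.11.15, with matplotlib 3.10.9. Tested on simulated data of 4 against 4 and 8 against 4 libraries, the procedure called 100% of 7 changed columns among 9 and 0% of the unchanged ones. With 1 changed column among 9 it called 0% at 4 against 4 libraries, where too few columns can reach the threshold, and with 2 changed columns 100% at 8 against 4. With 16 against 8 libraries it called 100% of 3 changed columns among 5 and 5% of the unchanged ones. The simulated shift was several times the spread of the simulated library means. These rates therefore do not tell how often smaller differences would be called.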

Additional observations from a re-analysis of the deposited data

Results flagged for a closer look

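In 2 of 60 groups of libraries and columns tried, 1 library stood far from the others of its group, where chance flags about 1 in 20. The mean LL loop enrichment of early-S cells in NoSort was 1.18 on the log2 scale in diploid 30_31, against 1.08 to 1.10 in the other 3 libraries. Mean contacts per cell over the 4 libraries of the G1 and early-S gates were 164760 in diploid 19 and 248304 to 258107 in the others. Neither cause was tested.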

How the results depend on the processing

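For 1CDU against NoSort 0 columns passed among cells with contacts between the 25th and the 75th percentile and 0 with medians over cells, each with 5 columns at an unadjusted exact permutation p under 0.05, and between 0 and 7 when 1 library was left out. The 2 settings lost the call through the smallest p the design allows, since 5 columns at it give an adjusted p of 0.0514. Over 8 columns without the replication score 6 passed, and 5 with either setting. EE loop enrichment, which had not passed, was 0.0138 above NoSort in 1CDU among cells of middle depth. For the sort gates against NoSort 1 column passed at middle depth, 1 with medians, 0 with equal weight of the tertiles, and 0 to 3 without 1 library. For 2i against serum 1 passed at middle depth, and 2 to 4 without 1 library, and the trans share was 0.276 points higher in 2i than in serum with only the 1CDU libraries. The cause was not tested. Spread, course and the sort gates against each other gave 0 passing columns in each alternative run. The alternative of middle depth left too few libraries for the later against the earlier sort gates and gave no value. No paired analysis was possible because libraries with at least 10 early-S cells share no number between the 2i conditions compared. Diploid 15_16_17_18 holds all 4 gates but at most 4 early-S cells in each. The 2i and serum libraries share only diploid 2_14, which entered that test as 1 library on each side. Depth limits the loop columns most, and the number of libraries limits every test.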
